A study of Mus musculus with 9 samples.

Results

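The comparison described here was between Cebpb-ko fibroblasts that stably overexpress LAP, the long isoform of the transcription factor C/EBPβ, and the same cells carrying the empty vector (EV). It took in 6 of the 9 libraries of the series, 3 for LAP and 3 for EV, and the other 3 came from cells that overexpress the short isoform LIP. All were immortalized mouse embryonic fibroblasts of the background C57BL/6 x 129 that lack functional C/EBPβ, so LAP was studied without the endogenous protein. The cells had been transfected with an empty plasmid or with one encoding rat C/EBPβ-LAP and selected with zeocin, and whether each line was a pool or a clone is not given in the sources used here. Nothing in those sources says that the libraries of a group came from separate cultures, so p-values measure only the spread between these libraries, which may be technical.

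C/EBPβ is a basic leucine zipper factor that binds DNA as a dimer, and its LAP form carries the transactivation domain that LIP lacks. In fibroblasts and other cells it is known for the induction of acute-phase and inflammatory genes, and in preadipocytes for the early steps of adipogenesis. The comparison asks which transcripts differ when only the long isoform is added to cells without C/EBPβ.

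Between 27062994 and 33522082 reads were counted on genes in each of the 6 libraries, and 18156 of 23337 genes had at least 1 count and were tested. A level is given in CPM, the counts for each 1000000 reads counted, after edgeR's TMM scaling, with the SD over 3 libraries, and a difference as the log2 fold change of LAP over EV with its SE. A gene is called where edgeR's quasi-likelihood test gave a Benjamini-Hochberg adjusted p under 0.05 over all genes tested. The 14 fibroblast markers, collagens and Pdgfra among them, summed to between 27571 and 29992 CPM in EV and to between 24248 and 33343 CPM in LAP, and none was at 3 counts or fewer throughout. Macrophage and leukocyte markers summed to 8.01 to 9.81 CPM in EV and 10.7 to 12.1 CPM in LAP, but 7 of 12, with the defining Ptprc, Itgam and Tyrobp, had 3 counts or fewer in every library. Adipocyte markers stayed under 3 CPM in sum, with Adipoq and Plin1 at that floor. In bulk RNA, fewer cells of a type and less RNA per cell cannot be told apart.

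The Cebpb transcript itself, the targeted gene, had 973, 684 and 1041 counts in EV 1 to 3 and 1077, 709 and 817 counts in LAP 1 to 3. Its log2 fold change was 0.04 ± 0.17, and the groups overlapped. The EV plasmid was empty, so it held no Cebpb sequence from which the EV reads could come. For the LAP reads, what remains of the disrupted gene and the plasmid's rat sequence cannot be told apart from counts per gene. The level was 28.4 ± 2.92 CPM in EV and 29.1 ± 4.16 CPM in LAP. The counts thus show no excess in LAP, and Cebpb is no check of the labels. The other C/EBP genes also overlapped between groups, with 5.44 ± 0.89 CPM in EV and 4.48 ± 1.14 CPM in LAP for Cebpa, 181 ± 35.6 and 168 ± 23 CPM for Cebpd and 65.4 ± 6.14 and 67.8 ± 10.8 CPM for Cebpg. None of the 9 C/EBP factors and partners tested had an unadjusted p under 0.05.

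LAP 2 stood apart from the other libraries before any comparison. On the first principal component, which held 41.4% of the variance, it lay at 40.7, with the other 5 libraries between -20.6 and 5.33. Its short transcripts were high: over the 405 genes with transcripts of under 1000 bases, the median log2 difference was 0.76 between LAP 2 and EV 2, against 0.00 for the first pair and 0.01 for the third. Values that LAP 2 carried are given without it as well.

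Few transcripts differed between the LAP and EV cells. An effect of LAP cannot be told apart here from other differences between the transfected lines. The test called 5 genes higher in LAP, which is 0.0275% of the genes tested, and 6 genes lower, which is 0.0330%. The higher genes included Glra2, Rpl39l, Alx4 and Nlrp2, and the lower genes included Lrrc3b, Pla2r1, Cadm3, Sema4f and Dlx3. Each of the 11 differed by at least 2-fold, and in none did the EV and LAP libraries overlap, a separation that 7.57% of all genes tested showed in either direction. The median log2 fold change over the 11548 genes averaging 20 counts or more was 0.00. At an unadjusted p under 0.05, 350 genes (1.93%) were higher and 243 (1.34%) lower.

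**Figure D1:**
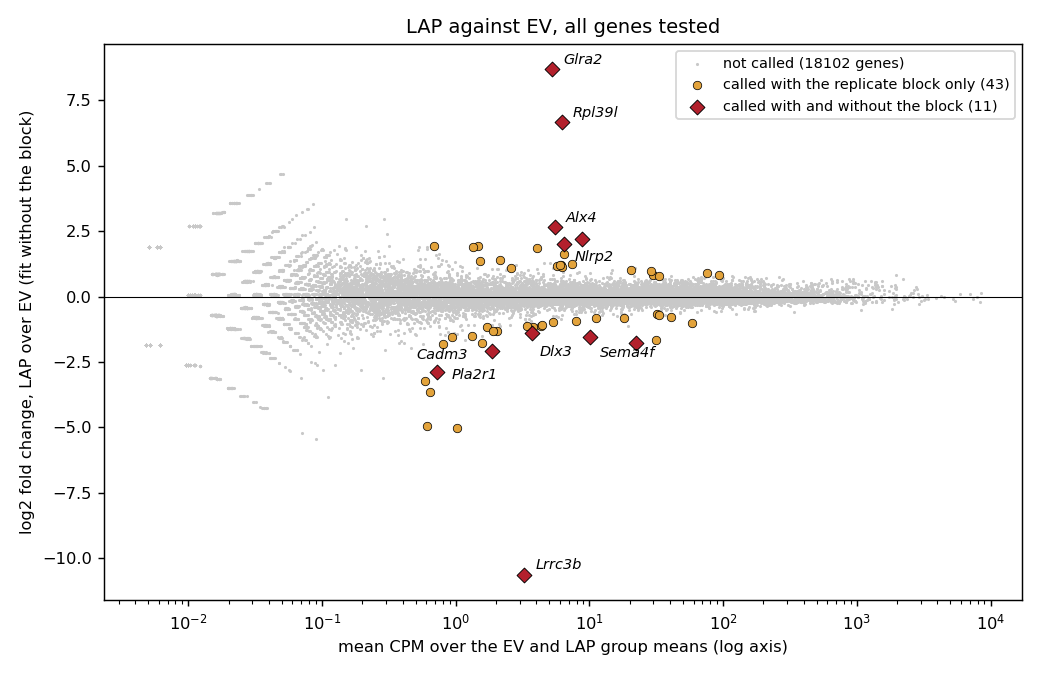
Each point is a gene tested, with the mean of the EV and LAP levels in CPM on a log axis and the log2 fold change of LAP over EV on the y axis. Red diamonds are the 11 genes called with and without the replicate number as a block, and orange circles the 43 genes called only with it. Glra2 at 8.69, Rpl39l at 6.67 and Lrrc3b at -10.64 lie far outside the cloud of other genes at their level.

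Glra2, Rpl39l and Lrrc3b were nearly absent from one group. Glra2 (chrX:165129017-165327867, GRCm38), which encodes a subunit of the glycine-gated chloride channel, had 0, 2 and 0 counts in EV 1 to 3 and 272, 459 and 198 counts in LAP 1 to 3. With 2 counts in EV against 929 in LAP, the ratio of depth-scaled counts was 493, with an exact 95% interval from 136 to 4080 that covers counting error only. Rpl39l (chr16:10170197-10174911), a paralog of the ribosomal protein gene Rpl39 that is best known from the testis, had 3, 6 and 2 counts in EV and 252, 658 and 177 in LAP. Its log2 fold change was 6.67 ± 0.59 (adjusted p = 0.000102), and 5.87 without LAP 2, its highest library, or 7.28 without EV 2. Glra2 has no EV count without EV 2, and its fitted log2 fold change was then 11.35. None of the 50-base windows of the Rpl39l transcripts occurred in another gene's transcripts.

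Lrrc3b (chr14:15357515-15438987), which encodes a membrane protein with leucine-rich repeats, differed in the other direction, with 157, 152 and 317 counts in EV and 0, 0 and 0 in LAP. Set against a floor of 3 counts per library, its level was at least 64-fold lower in LAP. For Glra2 and Lrrc3b the adjusted p were 1.1e-05 and 1.38e-05, and both remained called under each of the 17 alternatives in which they could be tested.

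Alx4 and Nlrp2 were expressed in EV and rose several-fold. Alx4, a homeodomain factor of the limb bud and craniofacial mesenchyme, had 54, 40 and 49 counts in EV and 431, 275 and 161 in LAP, with a log2 fold change of 2.65 ± 0.29 (adjusted p = 0.00103). Nlrp2, a member of the NLR family that is prominent in oocytes and early embryos, had 82, 72 and 88 counts in EV and 400, 371 and 152 in LAP (log2 fold change 1.99 ± 0.29, adjusted p = 0.0146). In both genes LAP 3 was the lowest of the LAP libraries but lay above every EV library.

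Nlrp2 was the called gene among 28 NLR and inflammasome genes, where the cytokine gene Il1a also had an unadjusted p under 0.05, with 0.98. Over all genes 0.0275% were called higher, and 1.93% were higher at that p. The lists were chosen with earlier results of these data known, so a called member is no result about its list. Rpl39l was the called gene among the 7 ribosomal protein paralogs tested, where Rps27l also had an unadjusted p under 0.05 with 0.75. Rps27l had 6020, 5838 and 6537 counts in EV and 5949, 16918 and 6016 in LAP, so only LAP 2 was high, and without it the value was 0.04.

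Sema4f, Cadm3, Pla2r1 and Dlx3 fell from a measurable level in EV. Sema4f, a membrane-bound semaphorin, had 414, 589 and 364 counts in EV and 145, 158 and 146 in LAP (-1.55 ± 0.25, adjusted p = 0.0432). The LAP libraries of Sema4f lay close together, and the spread was in EV.

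Cadm3, a neuronal cell adhesion molecule of the immunoglobulin family, fell from 3.06 ± 0.13 to 0.71 ± 0.30 CPM (-2.09 ± 0.31, adjusted p = 0.0195). Its counts were 103, 84 and 101 in EV and 29, 25 and 10 in LAP, and 4.0% of its 50-base windows are shared with transcripts of Ackr1. Pla2r1, the receptor for secreted phospholipases A2, was low in both groups, with 48, 41 and 30 counts in EV and 7, 3 and 5 in LAP (-2.89 ± 0.42, adjusted p = 0.0146). Dlx3, a homeodomain factor of placenta, skin and bone, had 160, 174 and 167 counts in EV and 63, 59 and 60 in LAP, with little spread between the counts of either group (-1.38 ± 0.23, adjusted p = 0.0432).

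**Figure D2:**
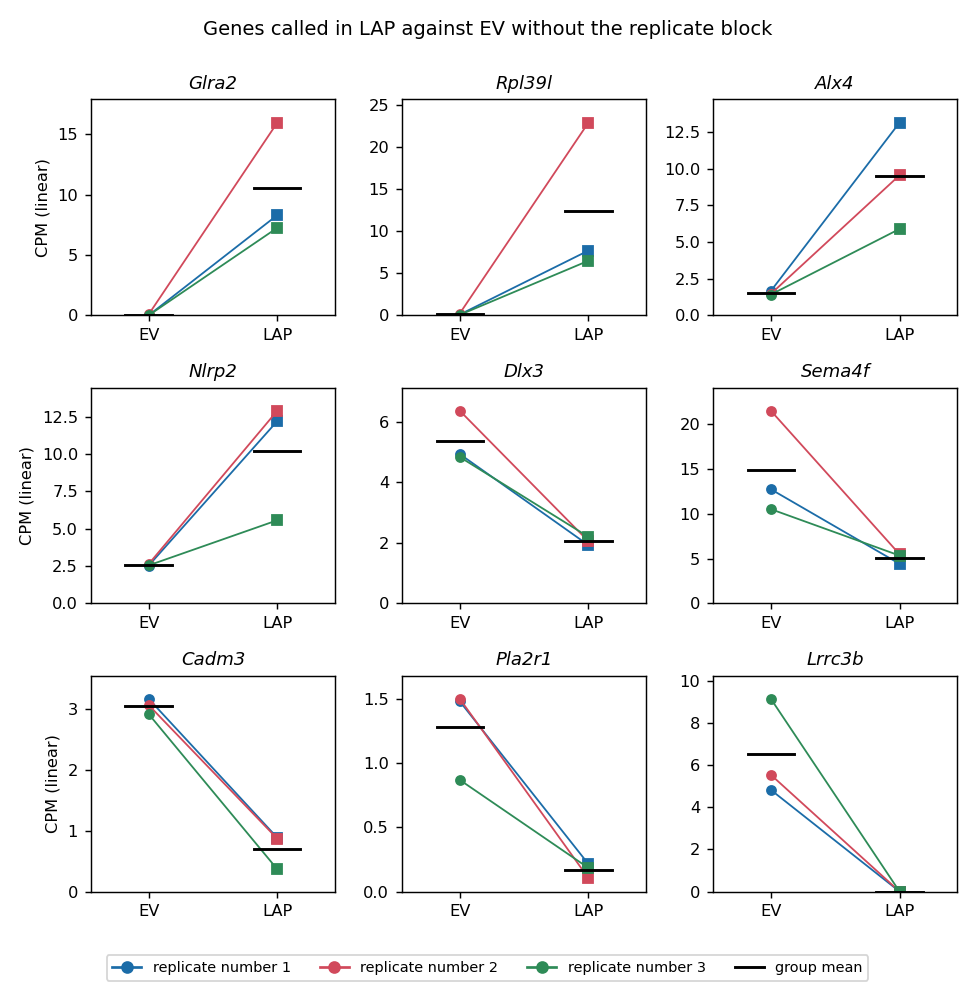
CPM on linear axes from 0 for 9 genes called without the block, with circles for the EV libraries, squares for the LAP libraries, lines joining libraries of the same replicate number and black bars for group means. In each panel the EV and LAP libraries do not overlap. Glra2 and Rpl39l are highest in LAP 2, and Lrrc3b is at 0 in all 3 LAP libraries.

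Each of the 6 libraries was left out in turn. The number of called genes was 24 without EV 1, 6 without EV 2, 16 without EV 3, 10 without LAP 1, 7 without LAP 2 and 62 without LAP 3. Glra2, Rpl39l, Lrrc3b and Alx4 remained called in each case, with adjusted p of at most 0.0154, that of Alx4 without LAP 2. Nlrp2, Pla2r1 and Cadm3 lost the call without EV 2 or LAP 2, where their adjusted p lay between 0.0698 and 0.108. Sema4f lost it without EV 2, LAP 1 or LAP 2 (0.123 to 0.203), and Dlx3 without any of EV 2, EV 3, LAP 1 and LAP 2 (0.0547 to 0.261).

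The replicate number tied EV and LAP libraries together. Across 11548 genes, the deviations of a library from its group mean correlated with those of the library of the same number in the other group with Pearson's r of 0.53, 0.21 and 0.51, while libraries of different number gave r between -0.46 and 0.01. Genes are not independent of each other, so these r describe the libraries only. With the group as the other term, 485 genes differed between replicate numbers.

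**Figure D3:**
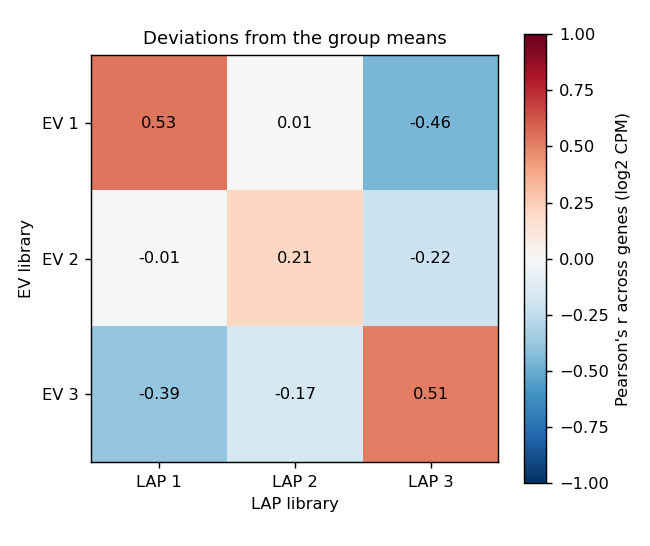
Pearson's r across genes between the deviations of each EV library (rows) and each LAP library (columns) from its group mean in log2 CPM, on a colour scale from -1 to 1. The highest value of each row and column is on the diagonal, which joins libraries of the same number, at 0.53, 0.21 and 0.51.

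With the replicate number as an additive block, 54 genes were called, of which 24 (0.132%) were higher in LAP and 30 (0.165%) lower. They included the 11 genes above. In each of the 54 the 3 same-number pairs moved in one direction, which the call itself favours and which adds no support. In 40 the groups did not overlap, as in 7.57% of all genes tested, and 42 differed by at least 2-fold. Scaling by total counts alone gave 14 higher and 31 lower genes, so lower genes made up 68.9% of the calls in place of 55.6%. The 43 genes called only with the block were all kept with DESeq2's size factors, and 33 by DESeq2 itself. One model of all 9 libraries kept 14 of them and edgeR's non-legacy form 4. The low-count filter filterByExpr kept 1, and a minimum of 10 counts in every library 0. Those filters left 51 and 41 of the 54 genes to test. In the values below, a log2 fold change is from the fit with the block.

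Among the 19 further genes that rose were the matrix-degrading proteases Mmp9 and Mmp3. Mmp9, a gelatinase, had 72, 55 and 38 counts in EV 1 to 3 and 357, 143 and 89 in LAP 1 to 3, and Mmp3, a stromelysin, had 286, 90 and 32 in EV and 591, 312 and 61 in LAP. For Mmp3 the groups overlapped, since number 1 was high and number 3 low in both groups, but LAP was higher in each pair. Their log2 fold changes were 1.75 ± 0.22 and 1.33 ± 0.19, with adjusted p of 0.000368 and 0.00149. They were the called genes among 59 matrix proteases and inhibitors tested, whose median over the 40 members averaging 20 counts or more was -0.02. Of the 50-base windows of Mmp3, 8.4% occur in other genes, Mmp10 among them.

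Has2, the main hyaluronan synthase of fibroblasts, had 2749, 1561 and 2077 counts in EV and 5004, 3312 and 2512 in LAP (0.83 ± 0.14, adjusted p = 0.00771). Fap, a surface serine protease that marks activated fibroblasts, had 195, 87 and 88 counts in EV and 430, 259 and 92 in LAP (1.03 ± 0.21, adjusted p = 0.0316). Lrrc15, another membrane protein of activated fibroblasts, had 775, 651 and 338 counts in EV and 2005, 1168 and 344 in LAP (0.85 ± 0.17, adjusted p = 0.0316). Fap was the one called gene of the 14 fibroblast markers, of which 7 lay above and 7 below EV with a median of 0.03. In Fap and Lrrc15 the third pair differed least and the groups overlapped. Without the first pair the 3 genes were not called, with adjusted p of 0.228, 0.306 and 0.939.

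Receptors and channels formed another part of the higher genes. Avpr1a, the vasopressin receptor V1a, rose in every pair, from 135, 77 and 82 counts in EV to 472, 263 and 154 in LAP (1.59 ± 0.19, adjusted p = 0.000149), without overlap. Adora2b, an adenosine receptor, had 153, 95 and 96 counts in EV and 409, 256 and 115 in LAP (1.14 ± 0.20, adjusted p = 0.0106). Gabra3, a GABA-A receptor subunit, had 143, 85 and 108 counts in EV and 356, 255 and 109 in LAP (1.07 ± 0.21, adjusted p = 0.0316). With Glra2 it made up the called higher genes among 60 ligand-gated channel subunits tested, and Gabrb2, another GABA-A subunit, was called lower with 51, 39 and 42 counts in EV and 23, 8 and 12 in LAP (-1.58 ± 0.32). Adora2b and Gabra3 lost the call without the first pair (0.245 and 0.341), as did Gabrb2 (0.0653), and Avpr1a kept it without any pair.

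The junction genes Gjb5, which encodes a connexin, and Dsg2, a desmosomal cadherin, rose by 1.22 ± 0.21 and 0.80 ± 0.16. Gjb5 had 107, 81 and 158 counts in EV and 321, 240 and 191 in LAP, without overlap. Dsg2 had 660, 673 and 695 counts in EV and 1312, 860 and 1216 in LAP, also without overlap, but it lost the call without the first or the third pair (0.423 and 0.144), and Gjb5 without the first (0.133). The summed epithelial markers were 1182 to 1354 CPM in EV and 952 to 1536 CPM in LAP, which overlapped.

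Transcription factors on the higher side included Pax7, which marks muscle satellite cells, and Dach2. Pax7 had 24, 19 and 10 counts in EV and 124, 65 and 8 in LAP, so the scaled level of the third pair barely differed (1.70 ± 0.34, adjusted p = 0.0316, and 1.09 without the first pair). Dach2 had 14, 15 and 29 counts in EV and 70, 101 and 38 in LAP (1.87 ± 0.33). Its value was 1.66 without the first pair, 1.46 without the second and 2.49 without the third. The call of Pax7 was lost without the first pair, with an adjusted p of 0.986. Summed muscle markers lay between 19.3 and 35.3 CPM in EV and between 17.6 and 64.4 CPM in LAP, with Myod1 and Myf5 at 3 counts or fewer in every library, and their part in the Pax7 result was not tested.

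H19, an imprinted non-coding RNA, had 63, 10 and 8 counts in EV and 112, 62 and 25 in LAP (1.54 ± 0.31, adjusted p = 0.0356). Its value was 2.27 without the first pair and 1.10 without the second. Also higher were Saa3, described with the inflammatory genes, the potassium channel subunit Kcng1 with 1.86 ± 0.37, and Gm1045 and U90926 with 1.41 and 0.80, and Gm14322. Without the first pair Kcng1, Gm1045 and U90926 were not called, with adjusted p of 0.765, 0.191 and 0.231. Of the 50-base windows of Gm14322, 86.3% occur in other genes such as Gm14418, so its counts of 429, 443 and 397 in EV and 680, 1008 and 734 in LAP are uncertain.

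Of the 24 further genes that fell, Klhl6, Zic1, Prg2 and Gpc3 were nearly lost in LAP. Klhl6, a kelch-like protein known from B cells, had 93, 79 and 6 counts in EV and 4, 1 and 0 in LAP. Zic1, a zinc finger factor of neural and limb patterning, had 65, 38 and 6 counts in EV and 0, 2 and 1 in LAP, a ratio of depth-scaled counts of 34.2 with an exact 95% interval from 11.4 to 168. Both were low in EV 3 already, and so were Prg2, the eosinophil major basic protein, with 54, 43 and 11 counts in EV and 3, 3 and 2 in LAP, and Gpc3, a glypican, with 66, 26 and 8 in EV and 7, 3 and 0 in LAP. Their log2 fold changes were -5.10 ± 0.47, -4.97 ± 0.64, -3.65 ± 0.48 and -3.30 ± 0.47, and the adjusted p ranged from 5.42e-06 to 0.00137. Without the first pair Klhl6 stood at -6.17 and Zic1 at -3.72, and Gpc3 was no longer called (0.0733).

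Hoxa9, Gata5 and Foxd1, all patterning factors, were also lower. Hoxa9 had 87, 74 and 66 counts in EV and 20, 27 and 16 in LAP (-1.78 ± 0.26, adjusted p = 0.00149), with no overlap. Gata5, a zinc finger factor of heart and gut, had 167, 117 and 213 counts in EV and 77, 44 and 83 in LAP (-1.20 ± 0.20, adjusted p = 0.00765). Foxd1, a forkhead factor of kidney stroma, had 44, 53 and 16 counts in EV and 14, 15 and 2 in LAP (-1.88 ± 0.35, adjusted p = 0.0181, and 0.0726 without the first pair).

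Matrix genes on the lower side were Fmod, Mgp and Col8a2. Fmod encodes fibromodulin, a collagen-binding proteoglycan, and had 3280, 1662 and 2441 counts in EV and 2056, 833 and 657 in LAP (-1.10 ± 0.16, adjusted p = 0.00131). Mgp, an inhibitor of calcification, had 1643, 1325 and 850 counts in EV and 898, 994 and 371 in LAP (-0.74 ± 0.14), and Col8a2, a chain of collagen VIII, had 1236, 873 and 1679 in EV and 828, 468 and 893 in LAP (-0.71 ± 0.14). In all 3 genes the groups overlapped and each pair was lower in LAP. Col8a2 lost the call without the first pair (0.201), and Mgp without the first or the third (0.444 and 0.0863). Col8a2 was the called one among 43 collagen chains tested, and the median over the 29 chains averaging 20 counts or more was -0.03.

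Lingo1, a leucine-rich repeat protein of the Nogo receptor complex, fell from 1828, 1061 and 1667 counts in EV to 636, 182 and 531 in LAP (-1.79 ± 0.19, adjusted p = 5.31e-05). Without the second pair it stood at -1.43. Together with Lrrc3b it was called lower among 39 leucine-rich repeat membrane proteins tested, and Lrrc15, given above, was called higher. Over all genes 0.165% were called lower and 0.132% higher. Gpnmb, a glycoprotein of lysosomes and melanosomes, had 741, 765 and 649 counts in EV and 540, 373 and 258 in LAP (-0.85 ± 0.16, adjusted p = 0.0209), the one call among 36 lysosomal genes tested. The remaining lower genes, with log2 fold changes from -1.49 to -0.78, were Pgm5, 4930452B06Rik, Hephl1, Dgkg, Fry, Mapk4, Wscd2, Prss12, Gpr149, Rnf157 and Srgap3. Of these, Pgm5, Hephl1, Dgkg, Fry, Mapk4, Prss12, Rnf157 and Srgap3 lost the call without the first pair (0.0557 to 0.394).

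**Figure D4:**
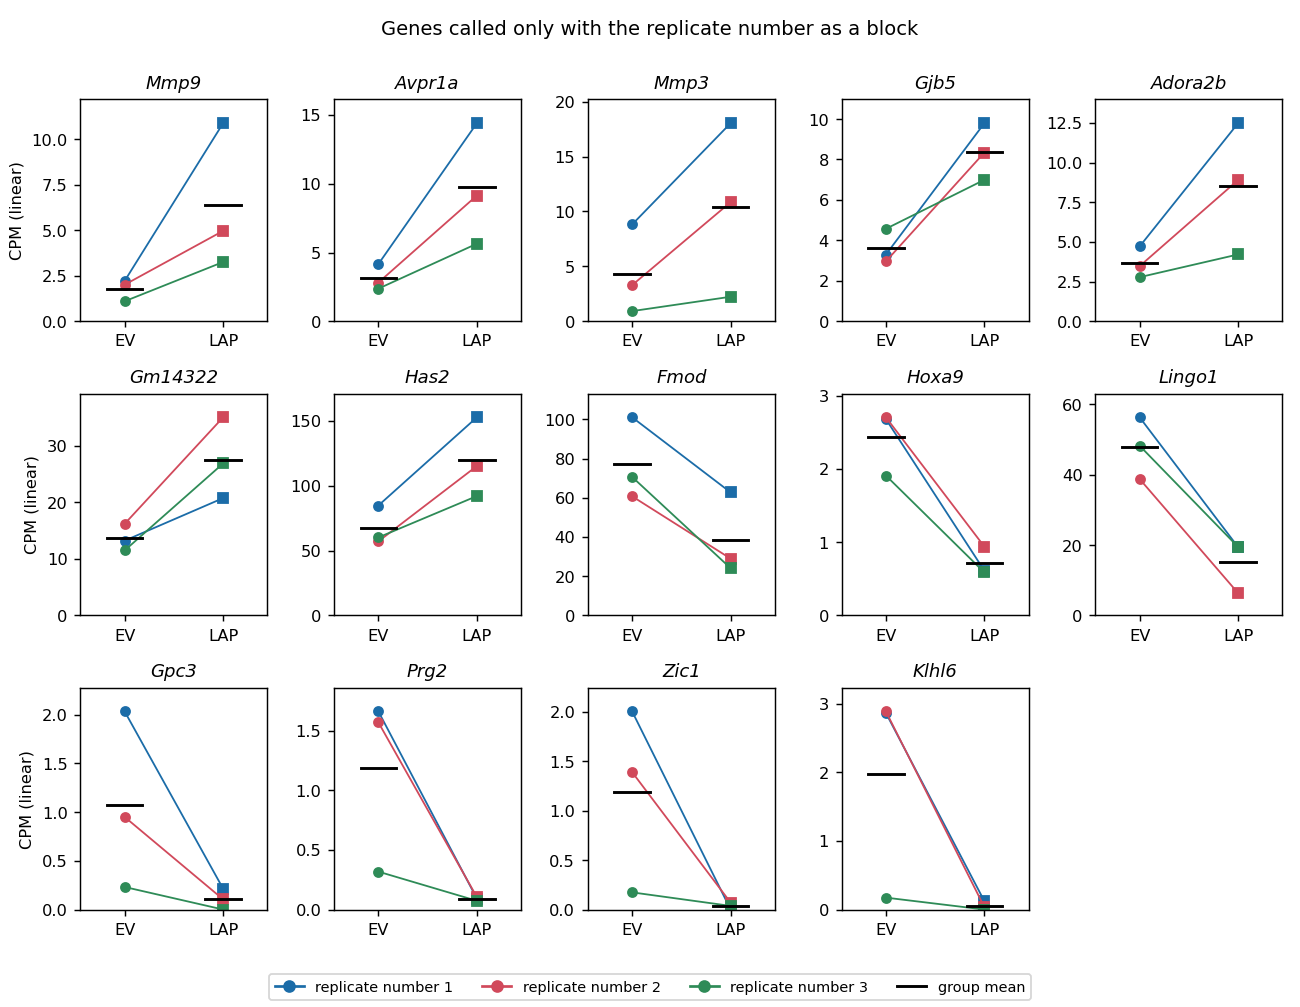
CPM on linear axes from 0 for genes called only with the replicate block, the 7 higher and the 7 lower ones with the smallest p, with circles for EV, squares for LAP, lines joining libraries of the same number and black bars for group means. Each line runs in the direction of its panel's other lines. In Mmp3, Klhl6, Zic1, Prg2 and Gpc3 the pair of number 3 lies lowest in EV.

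Leaving out the pair of number 2, which holds LAP 2, gave 273 called genes with all 54 among them, and leaving out number 3 gave 179 with 52 of them. Without number 1 there were 35, of which 29 were among the 54. With a pair left out, few libraries remain beside the terms of the fit. These counts, and a call kept without a pair, are therefore no measure of how firm a call is.

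The C/EBP motif was looked for in RefSeq promoter windows of 300 bases, from 250 before to 50 after the start that RefSeq's promoter windows use (GRCm38.p6), which were given for 38 of the 54 genes in 43 windows. The full palindrome TTGCGCAA on either strand was in 0 of the 43 windows and in 0.2% of all 32851 windows. The looser motif TTGCNNAA, searched on both strands and including the palindrome, was in 5 of 43 windows (11.6%) and in 10.8% of all windows. It was in none of the 7 windows of genes called without the block. The 5 matches are shown with 11 bases on either side of the motif, which is in capitals, and are read on the strand of the gene. Motif positions count from the start used for the window, which for Saa3 and Hephl1 lies inside the outer limit of the RefSeq gene record. They were printed because Saa3 and Mmp3, which rose, and Fmod, Prss12 and Hephl1, which fell, are the called genes that hold it. A match of these letters is a description of the window and not a site of binding.
Fmod, chr1:134037118-134037147, + strand, motif from -125: ggggaccaagaTTGCTGAAagagttaaaag
Prss12, chr3:123446754-123446783, + strand, motif from -148: ttctccagagaTTGCAAAAcacacacggaa
Saa3, chr7:46715757-46715786, - strand, motif in reverse from -99: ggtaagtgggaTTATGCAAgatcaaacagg
Mmp3, chr9:7445663-7445692, + strand, motif from -148: caccatttgccTTGCAAAAttaagaaggtt
Hephl1, chr9:15112235-15112264, - strand, motif from -145: gggaggtctgcTTGCACAAgttgtcagccc

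Acute-phase and inflammatory genes that are textbook C/EBP targets lay mostly above EV, though few passed a test. Of 34 tested, 0 were called without the block by edgeR or DESeq2, and with the block Saa3 and Mmp3 were called higher by both. At an unadjusted p under 0.05, 6 were higher and 0 lower, beside 1.93% and 1.34% of all genes. Of the 25 averaging 20 counts or more, 20 had a positive log2 fold change, and their median was 0.37, against 0.00 over all genes of that level. The medians of the 3 same-number pairs were 0.45, 0.24 and 0.10, and without LAP 2 the median was 0.30.

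Saa3, an acute-phase apolipoprotein, had 2847, 928 and 1279 counts in EV and 3750, 3411 and 1649 in LAP (0.96 ± 0.20 with the block, adjusted p = 0.0401), and without the second pair, which differed most, it stood at 0.54. Il6, the cytokine gene with the smallest p of the list, had 516, 349 and 635 counts in EV and 850, 934 and 624 in LAP. Scaled to 15.7 ± 2.82 and 27.1 ± 4.91 CPM these did not overlap, but Il6 passed neither threshold (0.79 ± 0.19, adjusted p = 0.44 without and 0.0644 with the block). Tnfaip6, a hyaluronan-binding protein, had 206, 159 and 202 counts in EV and 286, 284 and 249 in LAP, with a log2 fold change of 0.62 and an unadjusted p of 0.005. The chemokine gene Cxcl5 also had an unadjusted p under 0.05, with 0.62, which was 0.48 with a p of 0.0755 without LAP 2. Ccl7, another such gene, had 4202, 3694 and 3180 counts in EV and 5047, 9944 and 2693 in LAP. Its groups overlapped, and its log2 fold change of 0.75 was 0.09 without LAP 2.

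Of 45 chemokine and receptor genes tested, 0 were called by edgeR or DESeq2, with or without the block, and 6 were higher and 1 lower at an unadjusted p under 0.05. That p was reached by 1.93% of all genes on the higher side and 1.34% on the lower. The eosinophil chemokine Ccl11 had 17, 7 and 10 counts in EV and 50, 35 and 13 in LAP (1.58 ± 0.45, adjusted p = 0.917), and Ccl9 had 103, 76 and 67 in EV and 138, 270 and 78 in LAP, a log2 fold change of 1.06 that was 0.43 without LAP 2. The median over the 19 members averaging 20 counts or more was 0.19, and 0.05 without LAP 2. The summed macrophage markers were higher in every LAP library than in any EV library, as given above, and their part in these lists was not tested. The interferon response genes did not lie above EV, with 13 of 18 below it and a median of -0.08.

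Patterning factors outside the Hox clusters lay mostly below EV in the fit, but not in each pair. Of 100 tested, Alx4 was called higher and Dlx3 lower without the block, and with it Alx4 and Pax7 higher and Dlx3, Zic1, Gata5 and Foxd1 lower. At an unadjusted p under 0.05, 2 were higher and 8 lower, beside 1.93% and 1.34% of all genes. Of the 48 averaging 20 counts or more, 35 had a negative log2 fold change, beside 5727 of 11548 over all genes. But the median was only -0.08, and -0.02 without LAP 2 or without EV 3. The pairs gave 0.02, -0.12 and -0.26, and in the first pair 26 of the 48 lay above EV. The limb factor Tbx5 had 59, 63 and 69 counts in EV and 45, 30 and 28 in LAP, a log2 fold change of -0.82 that was not called.

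Of 35 Hox genes tested, Hoxa9 was called lower with the block and by DESeq2 without it. At an unadjusted p under 0.05, 4 were lower and 0 higher, beside 1.34% and 1.93% of all genes. Hoxa10, its neighbour in the cluster, had 27, 20 and 12 counts in EV and 2, 8 and 6 in LAP (-1.77, unadjusted p = 0.005), and Hoxa7 had 162, 127 and 156 in EV and 87, 77 and 91 in LAP (-0.71, unadjusted p = 0.006). Hoxd9 completed the 4 with -0.82. The median over 27 Hox genes was -0.17, but the pairs gave -0.08, 0.23 and -0.36, and without EV 3 it was 0.07, so the cluster genes as a group had no steady direction.

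Axon guidance genes had Sema4f as the one called member among 73 tested, and at an unadjusted p under 0.05, 0 were higher and 2 lower, the other being Slit1 with 46, 30 and 29 counts in EV and 18, 8 and 11 in LAP (-1.42). Over all genes 1.93% were higher and 1.34% lower at that p, shares that also stand beside the lists that follow. Of 55 averaging 20 counts or more, 42 were below EV with a median of -0.12, which was -0.03 without LAP 2. Among 53 growth factor and receptor genes tested, 0 were called by edgeR or DESeq2, with or without the block, and 0 were higher and 3 lower at an unadjusted p under 0.05, among them Areg (-0.83) and Fgf5, whose -0.62 had a p of 0.121 without LAP 2. Of the 65 Wnt pathway genes tested, 0 were called by either tool and 2 were lower at an unadjusted p under 0.05, and of these Wnt11, with 960, 825 and 923 counts in EV and 753, 460 and 602 in LAP, had -0.50 ± 0.18.

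Adipogenic and metabolic genes were close to EV. Of the 27 adipogenic genes tested, 0 were called by edgeR or DESeq2 with or without the block, 1 was higher and 1 lower at an unadjusted p under 0.05, and the median was 0.01. Lpl, which encodes lipoprotein lipase and was the higher one, had 770, 598 and 637 counts in EV and 1883, 1171 and 540 in LAP (0.88 ± 0.28, adjusted p = 0.918), with LAP 3 within the range of EV in CPM. Fabp4, a fatty acid-binding protein of adipocytes, was at 1.85 ± 0.63 CPM in EV and 1.86 ± 0.71 CPM in LAP.

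Among 25 genes of glycolysis and lactate, 11 of the pentose phosphate pathway, 30 of the citrate cycle and 31 of fatty acid oxidation, 0 were called by edgeR or DESeq2 with or without the block, and 0 had an unadjusted p under 0.05 without it. Their medians were -0.05, -0.06, 0.05 and 0.01, and the log2 fold changes of the 23 glycolysis genes averaging 20 counts or more ran from -0.27 to 0.33. Likewise 0 of 50 cell cycle and replication genes were called by either tool or had an unadjusted p under 0.05 without the block, with a median of -0.07. The RNA-binding protein gene Lin28b had 163, 130 and 110 counts in EV and 154, 248 and 87 in LAP (0.35 ± 0.32, adjusted p = 0.918). The groups overlapped, LAP 2 was the highest library, and without it the value was -0.13.

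Stress response lists held no called gene by edgeR or DESeq2, with or without the block. At an unadjusted p under 0.05, 0 were higher and 1 lower of 29 ATF4, serine and one-carbon genes, 1 and 1 of 30 genes of the unfolded protein response and 0 and 0 of 35 glutathione and antioxidant genes, and the medians were -0.02, 0.00 and 0.13. The antioxidant median was highest in the pair of LAP 2, at 0.42 beside 0.03 and -0.09 in the other pairs, and was 0.02 without LAP 2. Of 31 Notch pathway genes 0 were called by either tool and 0 had an unadjusted p under 0.05, though 17 of the 21 averaging 20 counts or more lay below EV with a median of -0.14, or -0.08 without LAP 2, and of 35 AP-1 and immediate early genes 0 were called by either tool, 0 were higher and 1 was lower at that p, with a median of -0.12 that was 0.01 without LAP 2 and 0.09 without EV 3. Genes of adhesion went both ways: 5 of 81 cadherin and protocadherin genes were higher and 6 lower at an unadjusted p under 0.05, and 2 of 30 integrins higher and 1 lower, with 0 calls by either tool in both lists. Among all genes 1.93% were higher and 1.34% lower at that p. The cadherin list holds cadherins and protocadherins and not the desmosomal Dsg2, given above. Among 67 other matrix genes, a list that does not hold Mgp, given above, Fmod was the called one, with the block. At that p 5 were higher and 2 lower without the block. Of the 5, Omd, Srpx and Thbs3 had an unadjusted p of 0.648, 0.117 and 0.0903 without LAP 2, and of the 2 Prelp had 0.145. With the block 7 were higher and 9 lower at that p, beside 636 and 468 of all 18156 genes.

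Ribosomal and respiratory chain genes were high in LAP 2 and near EV in the other 2 LAP libraries. Over the 78 cytosolic ribosomal protein genes the median log2 fold change was 0.40, and 77 of them had a positive value, but the pairs gave 0.04, 1.02 and -0.03, and without LAP 2 the median was 0.00. Rpl24, for example, had 23428, 19895 and 27210 counts in EV and 26738, 48442 and 22865 in LAP. The 77 nuclear-encoded respiratory chain and ATP synthase genes averaging 20 counts or more had a median of 0.33, with pairs at 0.03, 0.73 and 0.08 and 0.01 without LAP 2, and the 76 mitochondrial ribosomal protein genes had 0.26, with pairs at 0.02, 0.57 and 0.08 and 0.02 without LAP 2. By edgeR and DESeq2, with or without the block, 0 genes of the 3 lists were called, and 9, 10 and 5 were higher and 0 lower at an unadjusted p under 0.05. Transcript length moved with this: in the pair of LAP 2 the median difference was 0.76 for transcripts of under 1000 bases, 0.27 from 1000 to under 2000, -0.01 from 2000 to under 4000 and -0.19 from 4000 bases on, while in the other pairs each class lay between -0.02 and 0.01. The 321 short transcripts outside these lists had 0.69 in that pair.

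**Figure D5:**
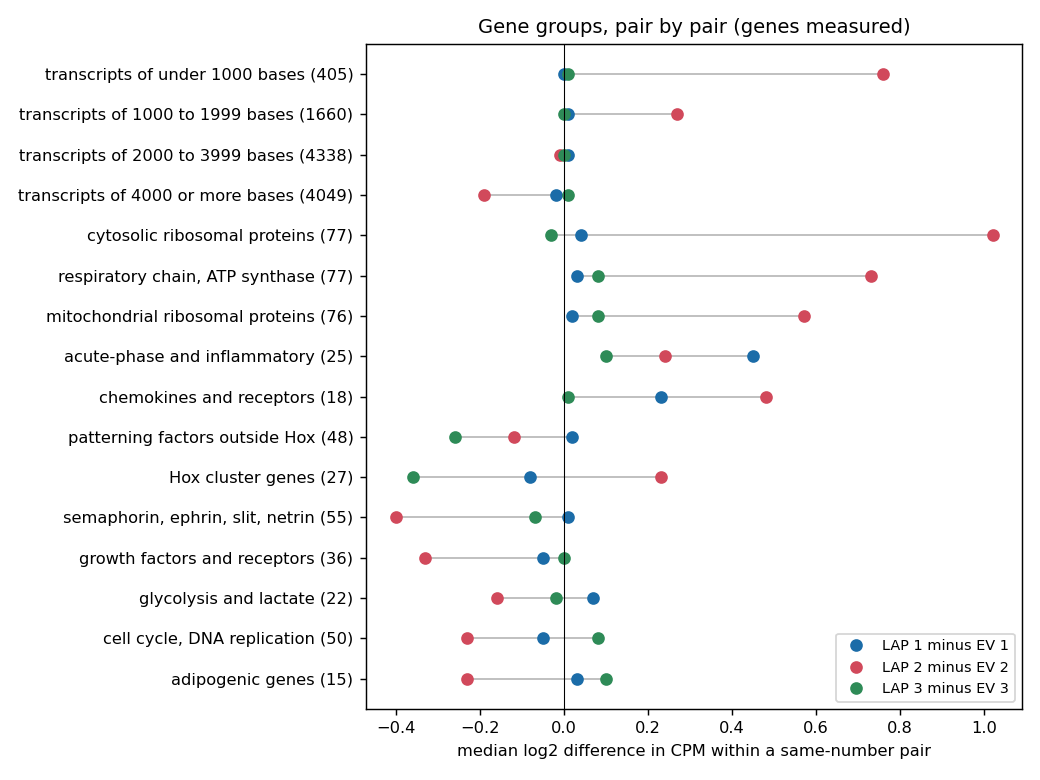
Median log2 difference in CPM of LAP from EV within each replicate number for 4 classes of transcript length and 12 gene lists, with the number of genes in brackets. The pair of LAP 2 (red) lies at 0.76 for the shortest transcripts and at 1.02 for cytosolic ribosomal proteins, where the other pairs lie between -0.03 and 0.04. Acute-phase and inflammatory genes lie above 0 in each pair, at 0.45, 0.24 and 0.10.

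The called genes were also set against the LIP libraries. LIP was tested directly against LAP, where 1.05% of 18166 genes were called, and the values of LIP against EV share the EV libraries and stand only as values. The test of LIP against LAP reuses the LAP libraries by which the genes were called, so its counts are not independent of those calls. Of the 10 genes called without the block that could be tested, 5 differed between the isoforms, each of them higher in LAP than in EV. Glra2 had 1, 1 and 0 counts in LIP 1 to 3, near EV. Rpl39l had 25, 51 and 3 counts in LIP, Alx4 had 84, 66 and 17 and Nlrp2 had 45, 44 and 4, in each case below every LAP library.

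Among the genes lower in LAP than in EV, Lrrc3b had 0 counts in each LIP library as in each LAP library, and so could not be tested between them. The other 5 lower genes gave no call between LIP and LAP. Cadm3 had 14, 8 and 5 counts in LIP, Pla2r1 had 3, 9 and 3, Sema4f had 114, 377 and 59 and Dlx3 had 66, 101 and 120. Of the 53 genes called with the block that could be tested, 14 differed between LIP and LAP, 10 of the higher and 4 of the lower, and where that test also held the block 30 differed, with 6.51% of all genes called.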

How the data were processed

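RNA of the 6 LAP and EV libraries was compared, with the 3 LIP libraries used only against LAP. Per the labels and the study's methods, total RNA was made into TruSeq RNA v2 libraries, and 50-base single-end reads were extracted with bcl2fastq 1.8.3, aligned with TopHat 1.4.1 to the mouse genome (mm10) and counted per RefSeq gene with HTSeq 0.5.4. The authors deposited raw counts per gene symbol, without normalization. The strand setting is not given in the sources used here, so overlapping genes on opposite strands cannot be told apart. Columns were matched to samples by title, and 0 columns were left unused.

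Genes with at least 1 count in the 6 libraries were scaled by TMM (factors 0.977 to 1.03) and tested with edgeR 4.0.16 in R 4.3.3 (glmQLFit and glmQLFTest, package defaults) with Benjamini-Hochberg adjustment at 0.05. Each SE was taken from the log2 fold change and its F statistic, as their quotient after the root of F. At these depths the floor of 3 counts stands for 0.0895 to 0.111 CPM, which covers counting error only. The labels number the libraries 1 to 3 in each group. Same-number deviations correlated at 0.53, 0.21 and 0.51, each over 0.1, so the numbers were taken as pairs and the fit with the number as a block is given beside the main one. Whether same-number libraries were prepared together is not given in the sources used here.

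Lists were described by counts of calls and by the median over members averaging 20 counts or more. Named were the genes called without the block, up to 12 higher and 12 lower genes with the smallest p with the block and a mean of at least 10 counts, the member with the smallest p of each list, list members called in either fit, and Cebpa, Cebpb, Cebpd, Cebpg and Lin28b. Other list members and called genes named in the text were chosen after their values were seen. The comparison, the lists and the tests were chosen with earlier results of these data known. The test was checked on simulated data. As alternatives, DESeq2 1.42.0, the exact test of edgeR, other scalings, filters and fits were run, and each library was left out in turn. Positions come from RefSeq on GRCm38.p6, promoter windows from RefSeq, transcript lengths and shared windows from GENCODE vM21, where 10452 of 11548 genes had a length. Protein sequences were not used here. Some called genes are counted but not reported here by name or value. Python 3.11.15 with matplotlib 3.10.9 drew the figures.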

Additional observations from a re-analysis of the deposited data

Results flagged for a closer look

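Of the genes called in LAP against EV with the replicate block, 14 also differed between LIP and LAP in the direct test of one isoform against the other (edgeR quasi-likelihood test, adjusted over 18166 genes). That test reuses the LAP libraries by which the genes were called, so these differences are not independent of the calls. In 12 of the 14 genes LIP was lower than LAP. Ordered by size, for the genes reported here, the log2 difference of LIP from LAP was -8.57 for Glra2 (adjusted p = 1.23e-07), -3.73 for Rpl39l (0.00557), -3.19 for Nlrp2 (0.0071), -2.92 for Avpr1a (0.00625) and -2.41 for Fap (0.0244). It was -2.24 for Alx4 (0.025), -2.23 for Gabra3 (0.0332) and -2 for Dsg2 (0.00131). All of these genes were higher in LAP than in EV.

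Gpnmb and Col8a2, which were lower in LAP than in EV, were lower again in LIP, by -1.53 (0.0185) and -1.50 (0.0386). Hoxa9 and Gata5, also lower in LAP, were higher in LIP than in LAP by 1.79 (0.026) and 1.64 (0.0386). Hoxa9 had 52, 94 and 69 counts in LIP 1 to 3, beside 87, 74 and 66 in EV 1 to 3, and Gata5 had 142, 140 and 350 beside 167, 117 and 213.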

How the results depend on the processing

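No called gene reversed its direction, but the balance of calls did in some settings. Without the block, 6 lower and 5 higher calls became 2 and 4 with the non-legacy quasi-likelihood form and 21 and 41 without LAP 3. With the block, 30 lower and 24 higher calls became 2 and 5 after filterByExpr and 71 and 108 without number 3. List medians near 0 often changed sign with a library left out, and the Hox median went from -0.17 to 0.07 without EV 3. Without the block, 26 genes were called by DESeq2, 33 by the edgeR exact test and 25 by both, all with the 11 among them, 6 by the non-legacy quasi-likelihood form, 3 after filterByExpr, 3 with all 9 libraries in one model, 6 at an adjusted p under 0.01, 54 with the replicate block, and 6 to 62 with one library left out. With at least 10 counts in every library 0 genes were called by edgeR, although 131 lower and 128 higher genes had an unadjusted p under 0.05. That filter left 7 of the 11 genes among the 11705 tested. With the replicate block, DESeq2's size factors gave 84 calls, filterByExpr 7, a minimum of 10 counts in each library 2, one model of all 9 libraries 26, the non-legacy form, which was chosen after seeing the data, 10, no block 11, and a left-out pair 35, 273 and 179 for numbers 1 to 3. Of the 5 genes that also differed between LIP and LAP, 1 did so after filterByExpr. The cause of these moves was not tested. Rpl39l lost its call under robust estimation only (adjusted p = 0.073), while Dlx3 lost it in 10 of 18 alternatives and Sema4f in 9. Cadm3 and Nlrp2 each lost it in 7 of 18 and Pla2r1 in 6 of 17. Alx4 lost it in 3 of 18: after filterByExpr, with at least 10 counts in every library and with all 9 libraries in one model. Klhl6 lost its call only without the block. With total counts as the scale the median of all genes averaging 20 counts or more was -0.03, and -0.04 with the block. All 11 genes were also called with the block. Depth limited genes at or under 3 counts per library.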
